A study of Mus musculus with 8 samples.

Results

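Genes of the lysosome were described in lung neutrophils of mice with Streptococcus pneumoniae pneumonia (SP) and of control mice given phosphate-buffered saline (PBS). The set held 34 genes named for their textbook roles as lysosomal enzymes, lysosomal membrane proteins or subunits of the lysosomal proton pump, and 33 of them had a row among the 24625 rows of the table. Ppt1, a palmitoyl-protein thioesterase, had no matched row. The rule named the members and used no measured value, though earlier results of these data were known when it was set. Messenger RNA was measured on Affymetrix Mouse Gene 1.1 ST arrays in 8 samples, 4 per group. So few arrays limit how precise each comparison can be. All mice were wild type and 6 to 12 weeks old per the labels. The study's methods give a narrower age range within this one, C57BL/6J colonies and matching by sex, without the sex of the mice used. Bacteria or PBS alone entered the left lung through the trachea in a volume of 2.3 µl for each g of mouse. Cells were taken 24 h later with magnetic beads that bind Ly6G, which mouse neutrophils carry on their surface. The methods describe a purity check of SP samples only, by stained cytospins, in which nearly all cells were neutrophils. The few other cells mostly resembled alveolar macrophages. The study's legends describe a sample as coming from 1 mouse, which the labels do not state.

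Lysosomes are acidic organelles in which proteins, glycans and lipids taken up from outside or delivered by autophagy are broken down. A proton pump, the V-ATPase, keeps their lumen acidic, soluble hydrolases reach them through mannose 6-phosphate receptors, and heavily glycosylated membrane proteins line and protect the limiting membrane. In neutrophils lysosomal enzymes take part in digesting engulfed bacteria. Macrophages are rich in the same genes, and alveolar type 2 cells use related organelles to store surfactant.

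Most members with a clear difference were higher in pneumonia. A row was called where the adjusted p by limma (Benjamini-Hochberg over all rows) was at most 0.05. Of the 33 members 22 were called (66.7%), against 44.1% of all rows. Of these 18 rose (54.5% of the members) and 4 fell (12.1%), against 21.5% of all rows called higher and 22.6% called lower. At least 2-fold differences were found for 11 higher and 2 lower members, against 6.37% and 11.3% of all rows. The PBS and SP values did not overlap for 22 members, 18 higher and 4 lower, against 49.0% of all rows (27.2% higher and 21.8% lower). The median SP minus PBS difference over the members was 0.65 log2 units, beside 0.10 over all rows. Lysosomal rows were brighter than most, and the 8078 rows with a mean at or above that of the dimmest member had a median difference of -0.04, with 28.1% called higher and 30.6% lower. The scaling of the arrays matters at this size of difference. When each array was centred on its own median, the median over all rows rose from 0.10 to 0.38 and that over the members from 0.65 to 0.93, because centring adds the same amount to each difference. Then 23 members (69.7%) were called higher and 3 lower (9.09%), against 57.7% and 16.4% of all rows, so the member share of higher calls stood much closer to that of all rows. After another quantile normalization 17 members (51.5%) were called higher, against 19.6% of all rows.

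**Figure D1:**
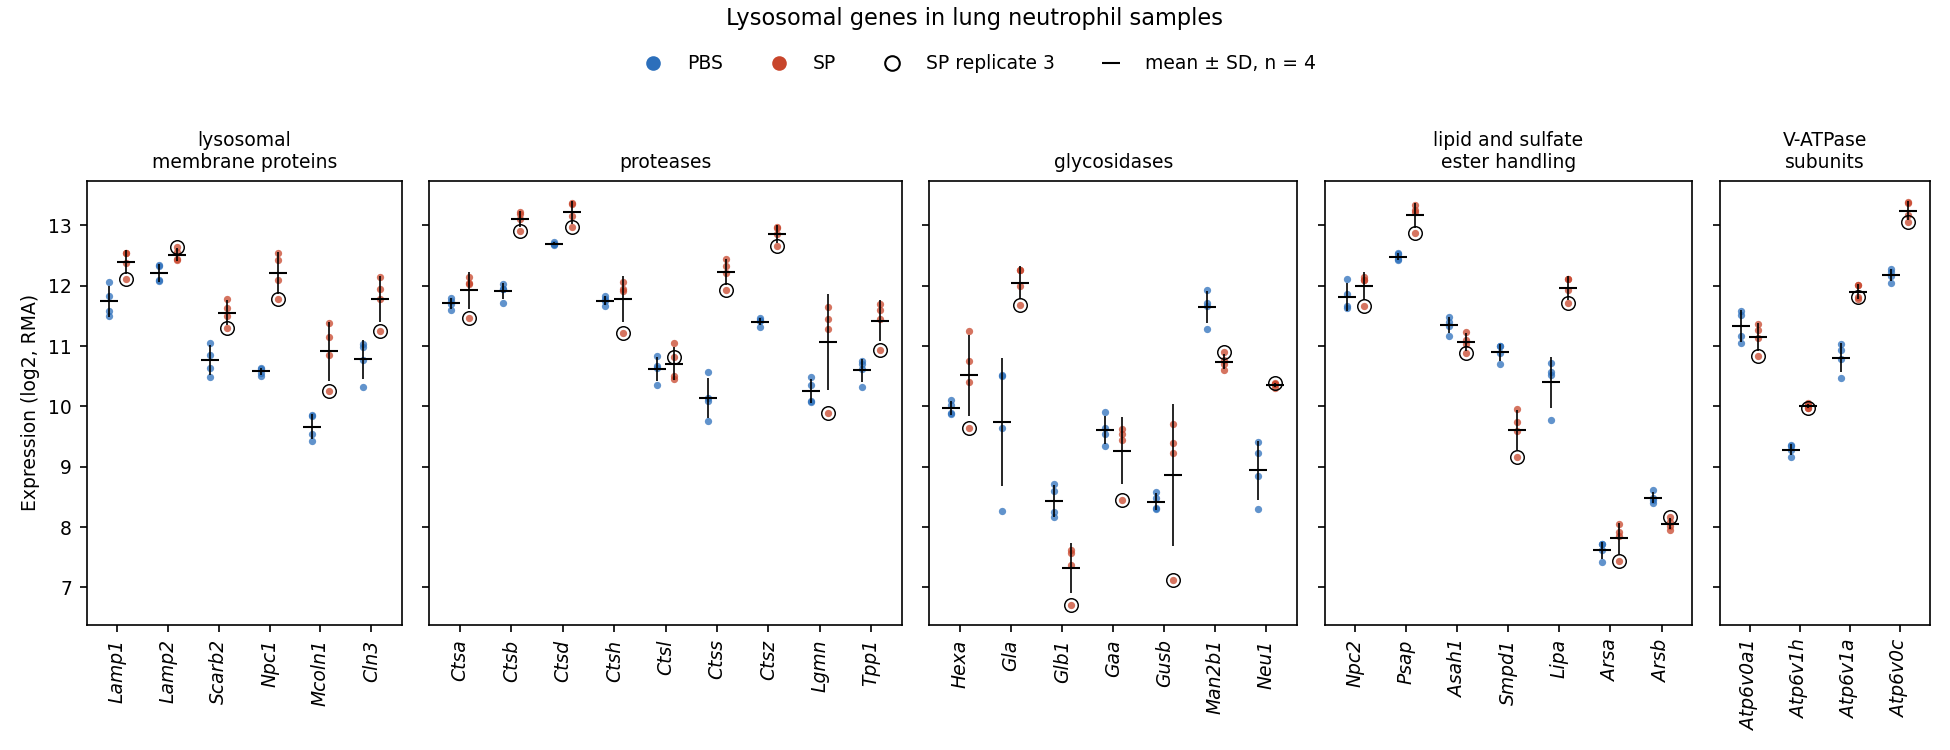
Expression of the 33 measured lysosomal genes (y axis, log2 values by robust multi-array averaging) in 4 PBS (blue) and 4 SP (red) samples, grouped by role, with black bars at the mean ± SD (n = 4). Circled points are SP replicate 3, the lowest SP value for 26 of the 33 genes, and all 4 SP values lie above all 4 PBS values for 18 genes.

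Promoter letters were read beside these values because many lysosomal genes carry a palindrome known as the CLEAR element, which the transcription factors TFEB and TFE3 bind. RefSeq promoter windows (GRCm38.p6, from 250 bases before to 50 bases after a gene's start) were at hand for 29 of the 34 genes. Its 8 central letters TCACGTGA, which read the same on both strands, were found in 6 of these 29 genes (20.7%), in 12 of 81 other lysosome genes (14.8%) and in 1.53% of the 15442 genes that had a window and a row. The 8 letters with a further G before and C after them were found in Cln3 alone among the 29 (3.45%, against 0.544%). The core CACGTG, which lies inside the 8, was found in 12 of 29 members (41.4%, against 9.48%). The 6 stretches are given 5′ to 3′ on the gene's strand, with the 8 letters by which they were selected in capitals.
Mcoln1, chr8:3500463-3500490, plus strand: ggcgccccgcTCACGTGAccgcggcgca
Cln3, chr7:126583341-126583368, minus strand: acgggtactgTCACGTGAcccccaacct
Ctsd, chr7:142387909-142387936, minus strand: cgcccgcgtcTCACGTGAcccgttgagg
Ctsa, chr2:164833750-164833777, plus strand: gagcaaactgTCACGTGAtgcagatgct
Gla, chrX:134601216-134601243, minus strand: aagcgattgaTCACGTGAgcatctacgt
Atp6v1a, chr16:44139374-44139401, minus strand: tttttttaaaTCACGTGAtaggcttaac
Ctsa and Gla each held the letters a second time in their windows. Of these 6 genes, Mcoln1, Cln3, Ctsd, Gla and Atp6v1a rose in SP and Ctsa was not called. Of the 22 measured members whose windows lacked the 8 letters, 10 rose and 4 fell. Over all genes with a row and a window, 33.9% of the 236 with the letters and 20.8% of the 15206 without them were called higher. The shares called lower were 21.6% with the letters and 26.3% without them. These are letter matches, with no measure of binding.

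All 6 lysosomal membrane proteins rose, by 1.24-fold to 3.09-fold, with a median difference of 0.89 log2 units and no overlap between groups for any of them. Of all rows, 21.5% were called higher and 27.2% lay higher without overlap. Npc1 (NM_008720), the membrane protein that exports cholesterol from the lysosome, had values of 10.61, 10.64, 10.51 and 10.56 in PBS and 12.42, 12.54, 11.77 and 12.09 in SP. The PBS samples lay within a narrow band far below the lowest SP sample, and the difference was 1.63 ± 0.16 log2 units (SE, adjusted p = 0.000117). Mcoln1 (NM_053177), a calcium channel of the lysosomal membrane, lay at 9.85, 9.84, 9.43 and 9.54 in PBS and at 11.14, 11.39, 10.26 and 10.86 in SP. It rose 2.37-fold (adjusted p = 0.00317), with a wider spread in SP (SD 0.49) than in PBS (0.21). Cln3 (NM_001146311), the membrane protein lost in juvenile Batten disease, lay at 10.77, 10.33, 11.03 and 10.99 in PBS and at 11.94, 12.15, 11.26 and 11.77 in SP. Its rise of 2.00-fold (adjusted p = 0.00696) sat at the 2-fold threshold, and SP replicate 3 was closest to the PBS range.

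The structural glycoproteins of the membrane rose less. Lamp1 was higher by 0.65 log2 units (adjusted p = 0.00914) and Scarb2, the receptor that carries glucocerebrosidase to the lysosome, by 0.79 (adjusted p = 0.00348). Lamp2 (NM_001017959), which also serves chaperone-mediated autophagy, lay at 12.07, 12.09, 12.33 and 12.34 in PBS and at 12.56, 12.44, 12.64 and 12.42 in SP. Its 4 SP values exceeded its 4 PBS values by little, and the difference of 0.31 log2 units (adjusted p = 0.0317) lost its call in 9 of 18 alternatives, 4 of them with a single sample left out, and shrank to 0.098 after another quantile normalization (adjusted p = 0.228). Lamp1 lost its call after the same normalization (0.44, adjusted p = 0.0991).

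Among the 9 proteases, 5 rose (55.6%, against 21.5% of all rows and 28.1% of rows at least as bright as the dimmest member). None was called lower, and the median difference was 0.82 log2 units. The largest rise was that of Ctss (NM_001267695), cathepsin S, the cysteine protease that trims the invariant chain of MHC class II. Its values were 10.57, 9.75, 10.09 and 10.14 in PBS and 12.33, 12.44, 11.94 and 12.21 in SP, and every SP sample exceeded the highest PBS sample by more than 1 log2 unit. It rose 4.26-fold, by 2.09 ± 0.18 log2 units (SE, adjusted p = 5.94e-05). Ctsz (NM_022325), the carboxypeptidase cathepsin Z, lay at 11.47, 11.41, 11.32 and 11.43 in PBS and at 12.95, 12.98, 12.66 and 12.86 in SP. Both groups were tight, and the rise of 1.45 ± 0.09 log2 units had the lowest adjusted p of the members (1.35e-05). Ctsb (NM_007798), the broadly acting cysteine protease cathepsin B, went from 11.94, 11.72, 11.95 and 12.03 in PBS to 13.22, 13.18, 12.91 and 13.10 in SP, a rise of 2.28-fold (adjusted p = 5.51e-05).

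Ctsd (NM_009983), the aspartic protease cathepsin D, was nearly constant in PBS at 12.70, 12.70, 12.73 and 12.67 and lay at 13.38, 13.35, 12.97 and 13.16 in SP. The difference of 0.52 log2 units was small but well above its spread (adjusted p = 0.00367). Tpp1, a tripeptidyl peptidase, rose by 0.82 log2 units (adjusted p = 0.00649). The other 4 proteases were not called. Ctsl, cathepsin L, differed by 0.08 (95% interval -0.27 to 0.44) and Ctsh, an aminopeptidase that in alveolar type 2 cells helps to process surfactant protein B, by 0.03 (-0.38 to 0.44). Ctsa, the serine carboxypeptidase that protects the enzymes encoded by Neu1 and Glb1, differed by 0.21 (-0.13 to 0.56). Lgmn, the asparaginyl endopeptidase legumain, had SP values of 11.45, 11.29, 9.90 and 11.64 against 10.48, 10.36, 10.08 and 10.09 in PBS. In 3 SP samples Lgmn lay above all PBS values, while SP replicate 3 lay below them, and the difference of 0.82 was not called (adjusted p = 0.0886).

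**Figure D2:**
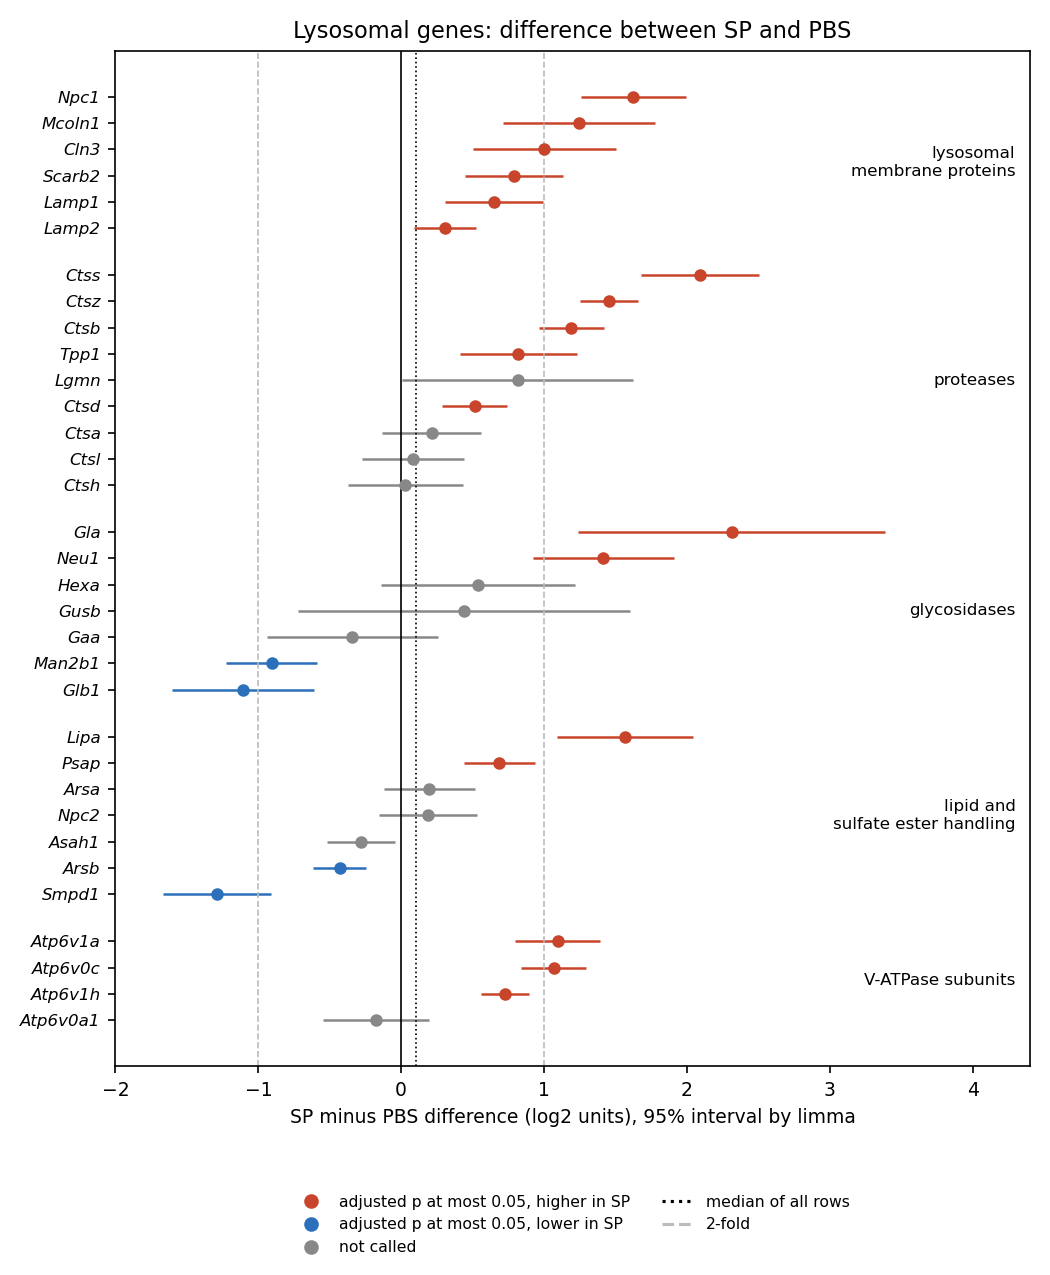
SP minus PBS difference of each member (x axis, log2 units) with its 95% interval by limma, ordered by size within each role; red and blue points mark members called higher or lower and grey points members not called. Differences run from -1.29 (Smpd1) to 2.31 (Gla), and the dotted line marks the median of all rows (0.10).

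The 7 glycosidases, which remove sugars from glycoproteins and glycolipids, held 2 higher, 2 lower and 3 not called genes. The shares of 28.6% each way were close to those of rows at least as bright as the dimmest member (28.1% higher and 30.6% lower). Gla (NM_013463), α-galactosidase A, had the largest difference of the members, 2.31 log2 units or 4.97-fold (adjusted p = 0.00473). Its values were 9.64, 8.27, 10.52 and 10.51 in PBS and 12.26, 12.26, 11.68 and 12.00 in SP. The PBS samples were widely spread (SD 1.06) owing to the low value of replicate 2, yet all lay below the SP samples, and without PBS replicate 2 the difference was 1.83. Neu1 (NM_010893), the lysosomal sialidase, rose 2.67-fold (adjusted p = 0.00113), from 8.84, 8.30, 9.40 and 9.22 to 10.38, 10.37, 10.38 and 10.30. The 4 SP values of Neu1 were nearly equal (SD 0.04), whereas the PBS values again had replicate 2 at the bottom.

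Glb1 (NM_009752), β-galactosidase, fell 2.15-fold (adjusted p = 0.0042), from 8.59, 8.71, 8.17 and 8.25 in PBS to 7.37, 7.58, 6.72 and 7.63 in SP. Its SP values all lay below the PBS values, and without SP replicate 3, the lowest, the difference was -0.90 log2 units in place of -1.11. Man2b1 (NM_010764), the lysosomal α-mannosidase, lay at 11.67, 11.28, 11.93 and 11.71 in PBS and at 10.60, 10.70, 10.90 and 10.77 in SP, a fall of 1.87-fold (adjusted p = 0.00118) with no overlap. Neu1 and Glb1, whose products sit in a complex with that of Ctsa, thus differed in opposite directions. Hexa, the α subunit of β-hexosaminidase, differed by 0.54 log2 units (95% interval -0.14 to 1.22) and Gaa, the acid α-glucosidase that degrades glycogen, by -0.34 (-0.94 to 0.26). Gusb, β-glucuronidase, lay at 9.39, 9.71, 7.12 and 9.23 in SP and at 8.48, 8.59, 8.32 and 8.31 in PBS. SP replicate 3 was the lowest of the 8 samples for Gusb and the other SP samples were the highest, so the difference of 0.44 had a 95% interval of -0.72 to 1.601.

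Genes for the handling of lipids and sulfate esters held 2 higher, 2 lower and 3 not called genes of 7 measured. These were the same shares as for the glycosidases, again close to those of rows at least as bright as the dimmest member. Lipa (NM_001111100), the acid lipase that releases cholesterol from its esters, lay at 10.72, 9.77, 10.58 and 10.52 in PBS and at 12.12, 12.11, 11.71 and 11.93 in SP. It rose 2.97-fold (adjusted p = 0.000534), each SP sample lying above each PBS sample. Psap (NM_001146120), the precursor of the saposins that present sphingolipids to their hydrolases, went from 12.54, 12.45, 12.52 and 12.43 to 13.26, 13.33, 12.87 and 13.22, a rise of 1.61-fold (adjusted p = 0.00132). Smpd1 (NM_011421), acid sphingomyelinase, which turns sphingomyelin into ceramide, showed the largest fall of the members. Its values were 11.00, 11.00, 10.70 and 10.89 in PBS and 9.74, 9.58, 9.16 and 9.96 in SP, a difference of -1.29 ± 0.17 log2 units (SE, adjusted p = 0.000456) with wide separation of the groups.

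Arsb, the sulfatase of dermatan and chondroitin sulfate, was lower by a small amount (-0.43, adjusted p = 0.00336), and this call was lost with centred arrays (-0.15, adjusted p = 0.261) and after another quantile normalization (-0.19, adjusted p = 0.276). Asah1, acid ceramidase, differed by -0.28 and was not called (adjusted p = 0.0556). Npc2, the soluble cholesterol carrier that hands its cargo to Npc1, differed by 0.19 (95% interval -0.16 to 0.53), and its SP and PBS values overlapped. Arsa, the sulfatase of sulfatide, differed by 0.20 (-0.12 to 0.51).

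Of the 4 V-ATPase members, 3 rose, against 21.5% of all rows called higher and 28.1% of rows at least as bright as the dimmest member. Atp6v0c (NM_009729), which encodes the ring subunit of the membrane sector, lay at 12.17, 12.05, 12.27 and 12.23 in PBS and at 13.39, 13.37, 13.05 and 13.17 in SP, a rise of 1.07 log2 units (adjusted p = 9.36e-05). Atp6v1a (NM_007508), the catalytic subunit, lay at 10.79, 10.47, 11.04 and 10.93 in PBS and at 12.01, 12.02, 11.81 and 11.78 in SP, a rise of 1.09 (adjusted p = 0.00032). In both, SP samples stood above all PBS samples. Atp6v1h, the regulatory subunit, rose by 0.73 (adjusted p = 0.000126), with an SD of only 0.04 in SP. Atp6v0a1, an isoform of the large membrane subunit, differed by -0.18 (95% interval -0.55 to 0.19) and was not called.

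Other genes of the pathway were taken from 5 lists of 106 genes, 103 of them with a row. Of these 50 were called higher (48.5%) and 11 lower (10.7%), against 21.5% and 22.6% of all rows, with a median difference of 0.43 log2 units beside 0.10 over all rows. The same shares of all rows apply to each list that follows. Of 15 other V-ATPase subunits, 9 were higher (60.0%) and 1 lower (6.67%). Tcirg1, the immune and osteoclast isoform of the large membrane subunit, rose 4.37-fold (adjusted p = 7.39e-05), with PBS samples at 10.06 ± 0.06 and SP samples at 12.19 ± 0.42 (SD, n = 4), and Atp6v1c1, a subunit of the cytosolic sector, rose 4.24-fold. Atp6v0e2 was the subunit called lower (-0.95, adjusted p = 0.0011). Tcirg1 and Atp6v0a1 encode alternative forms of the same subunit, and their values were higher and not called, respectively.

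The list of 24 other membrane proteins and transporters held 12 higher (50%) and 3 lower genes (12.5%). Clcn7, the chloride and proton exchanger of the lysosome, rose 8.65-fold, from 8.70, 8.68, 8.63 and 8.52 to 12.12, 12.11, 11.27 and 11.49 (adjusted p = 1.49e-05). Its difference of 3.11 log2 units exceeded that of each member. Its partner Ostm1 was 1.37-fold higher (adjusted p = 0.0498), which is at the threshold. Tmem192 rose 3.63-fold. Tpcn1, a cation channel of endosomes and lysosomes, fell by 1.70 log2 units (adjusted p = 0.000698) and Laptm4b by 1.44 (adjusted p = 0.000544).

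Of the other hydrolases 14 of 34 were higher (41.2%) and 4 lower (11.8%), and their median difference was -0.05. Naglu, which degrades heparan sulfate, rose 6.94-fold (adjusted p = 0.000106) and Acp5, tartrate-resistant acid phosphatase, 4.54-fold (adjusted p = 1.57e-05). Siae, a sialic acid esterase, fell by 1.88 log2 units (adjusted p = 0.00151) and Ids, iduronate sulfatase, by 1.71 (adjusted p = 4.64e-05).

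Sorting and biogenesis genes held 13 higher (61.9%) and 2 lower (9.52%) of 21. Both mannose 6-phosphate receptors rose, M6pr by 1.02 log2 units (adjusted p = 2.14e-05) and Igf2r by 1.49 (adjusted p = 0.00143). Sort1, sortilin, an alternative sorting receptor for lysosomal proteins such as those of Psap and Smpd1, fell from 10.92, 11.02, 10.88 and 10.92 to 8.66, 8.56, 9.10 and 8.97, which is 4.33-fold (adjusted p = 1.22e-05). Gnptg, a subunit of the enzyme that makes the mannose 6-phosphate tag, was lower by 0.74. All 4 genes of the family of transcription factors that bind the CLEAR element or related letters were called higher. Tfec rose 6.28-fold (adjusted p = 0.000308), from 8.55, 7.59, 7.88 and 7.86 to 10.83, 11.08, 9.73 and 10.85, Tfe3 2.14-fold (adjusted p = 0.00212) and Mitf 2.00-fold (adjusted p = 0.00348). Tfeb rose 1.88-fold (adjusted p = 0.0403), with SP replicate 3 (8.48) inside its PBS range of 7.55 to 8.54. Tfeb, Tfe3, Mitf, M6pr and Ostm1 were not among the 2 largest called rises or falls of their lists. They were named after their values were seen.

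**Figure D3:**
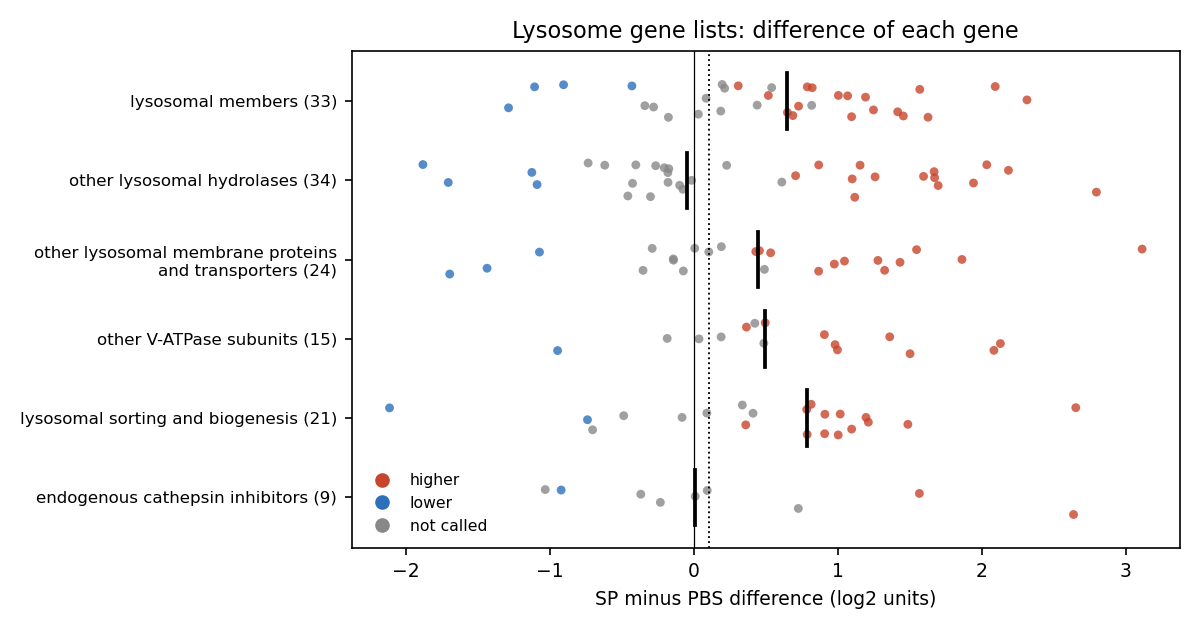
SP minus PBS difference (x axis, log2 units) of every gene with a row in the member set and in 5 lists of other lysosome genes, with the number of genes in brackets; red, blue and grey points are genes called higher, called lower and not called, and black bars are list medians. The medians run from -0.05 for other hydrolases to 0.79 for sorting and biogenesis genes, beside 0.10 over all rows (dotted line).

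Members did not vary alike among the SP samples. SP replicate 3 was the lowest SP sample for 26 of 33 members (78.8%), against 33.9% of all rows. Of the rows at least as bright as the dimmest member, it was the lowest SP sample for 54.7%. It lay at least 0.5 log2 units below the mean of the other SP samples for 12 members, most of all for Gusb (-2.32), Lgmn (-1.56), Hexa (-1.16) and Gaa (-1.09). The same array had the highest mean of 9 neutrophil markers (12.69, against 11.61 to 11.87 in the other SP samples). The granule genes Camp and Ltf stood at 10.94 and 12.10 there, against 7.60 to 8.17 and 9.69 to 10.22 in the other SP samples. It also had the lowest mean of 11 monocyte and interstitial macrophage markers (8.05, against 9.14 to 9.52). The part of these shifts in the member values was not tested. Without SP replicate 3, 23 members were called higher and 4 lower, since Ctsa, Ctsh, Lgmn, Hexa, Gusb and Arsa gained a call and Lamp2 lost it. Of all 24625 rows, 5301 were then called higher and 5486 lower, in place of 5306 and 5554 in the main comparison. Without both SP replicate 3 and PBS replicate 2 the member counts were 24 and 5, and those of all rows 4760 and 5517. PBS replicate 2 was the lowest PBS sample for 14 members (42.4%), among them Gla, Neu1, Lipa and Ctss. It was the lowest for 36.3% of all rows and 43.0% of the rows at least as bright as the dimmest member.

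**Figure D4:**
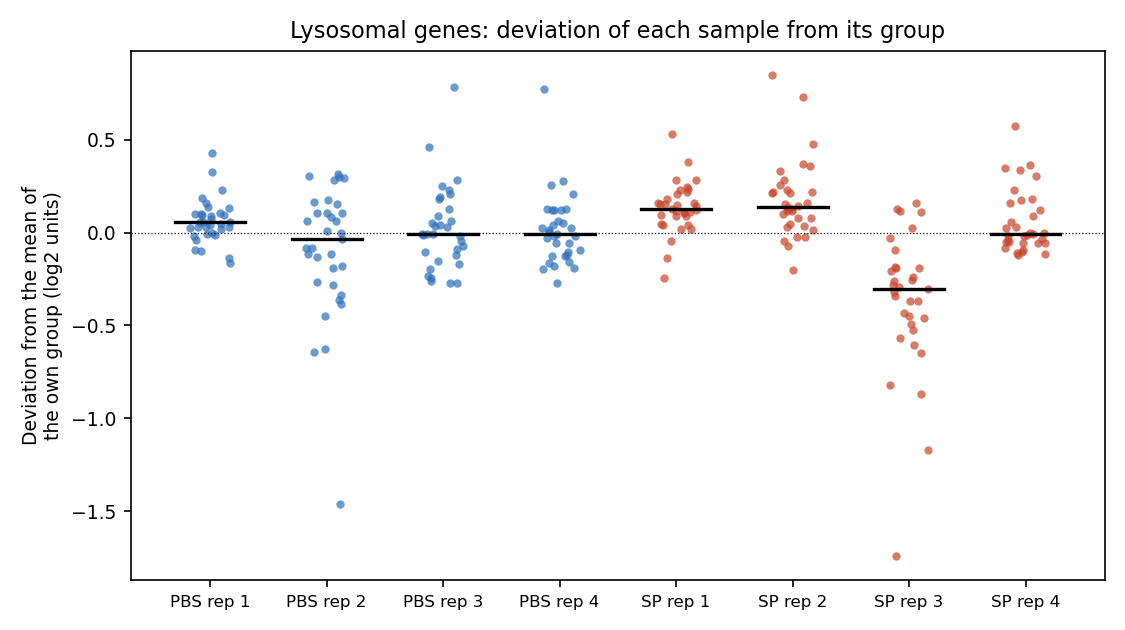
Deviation of each sample from the mean of its own group (y axis, log2 units) for the 33 measured members, with PBS samples in blue, SP samples in red and a black bar at the median of each sample. SP replicate 3 has a median deviation of -0.30, and the other 7 samples lie between -0.04 and 0.14.

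Markers of other cell types moved with the same groups. In these bulk samples, fewer cells of a type and less RNA per cell cannot be told apart. Of all rows 21.5% were called higher and 22.6% lower, and of rows at least as bright as the dimmest member 28.1% and 30.6%. Alveolar macrophage markers were on balance lower in SP, with 6 of 13 measured genes lower and 2 higher and a list mean of 8.86 to 9.57 in PBS and 8.05 to 8.85 in SP. Monocyte and interstitial macrophage markers held 4 higher (36.4%) and no lower genes of 11 (at an adjusted p of 0.05 by limma). Their means were 8.23 to 9.002 and 8.05 to 9.52. Alveolar type 2 markers were lower for 8 of 10 genes, with means of 11.53 to 12.10 in PBS and 9.76 to 11.09 in SP. Club cell (12.26 to 12.71 and 9.50 to 10.55), ciliated (9.18 to 9.95 and 6.54 to 7.29), endothelial (10.20 to 11.16 and 8.57 to 9.81), alveolar type 1 (9.34 to 10.39 and 8.18 to 9.14) and B cell lists (7.73 to 8.66 and 5.91 to 7.13) were lower in SP without overlap, whereas fibroblast means (8.34 to 9.09 and 7.32 to 9.14) and T cell means (5.24 to 5.78 and 5.30 to 6.28) overlapped. Dendritic cell means were 7.68 to 8.30 and 7.04 to 7.62. No list had a marker that stayed at or below the top of 3 Y-linked genes, which were dim on every array (4.33 to 4.90). Some came close, such as the T cell marker Themis (at most 4.91) and the dendritic cell marker Flt3 (at most 4.94). Neutrophil markers were bright in both groups, at 12.12 to 12.37 and 11.61 to 12.69. Of these 9 markers 3 were called lower in SP (Retnlg, Mmp8 and Mmp9) and none was called higher. That share of 33.3% lower stood beside 30.6% of rows at least as bright as the dimmest member. For higher calls the share was 0.0%, beside 28.1% of those rows. Those rows were not matched to the neutrophil markers in brightness. For 8 of these 9 neutrophil markers the difference was below 0 (median -0.30). Camp was the marker with a difference above 0. Ly6g itself had no matched row here, though the study reports high expression of its mRNA in all samples. In SP replicate 3 each of these lists but those of neutrophils and T cells was at its lowest among the SP samples. The mean over the members was 10.81 there, against 10.52 to 10.68 in PBS and 11.23 to 11.35 in the other SP samples. Role means of membrane proteins, proteases and V-ATPase subunits lay above their PBS samples there. Those of glycosidases (9.27, against 9.28 to 9.67 in PBS) and of lipid and sulfate ester genes (10.27, against 10.38 to 10.54) lay below. The part of other cells in these values was not tested.

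**Figure D5:**
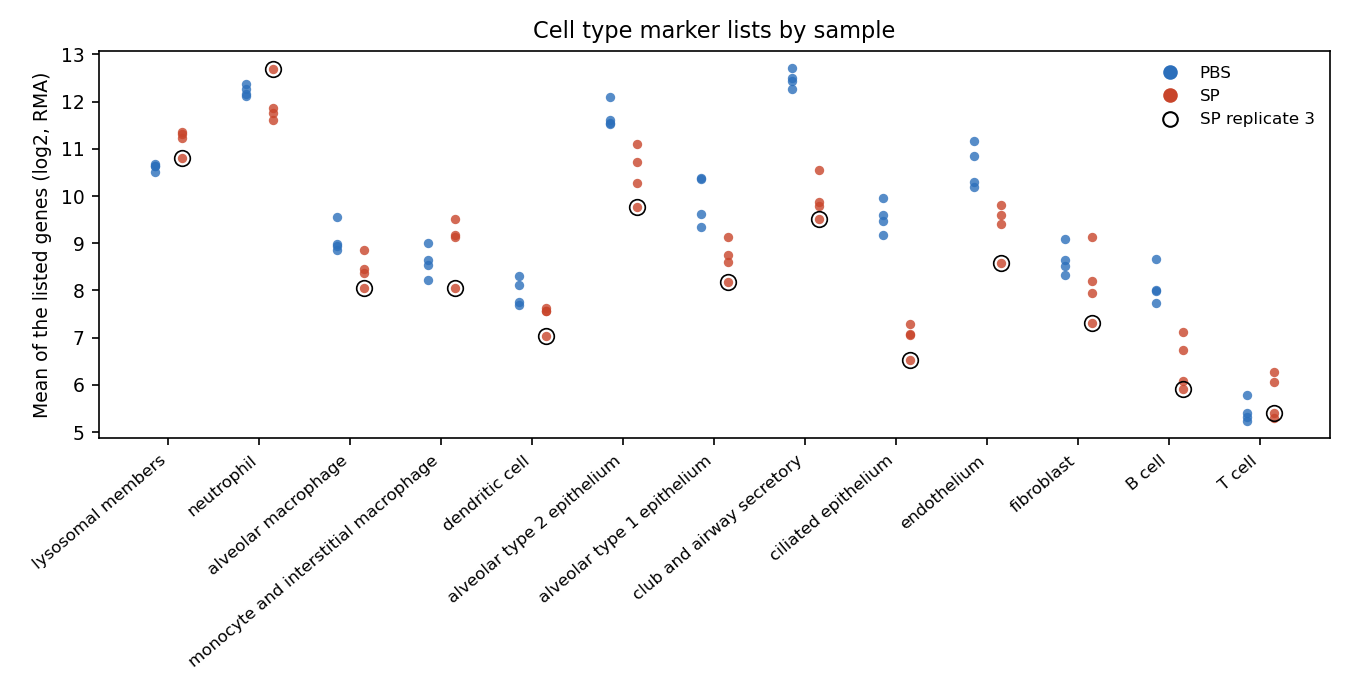
Mean of the lysosomal members and of each cell type marker list (y axis, log2) in 4 PBS samples (blue) and 4 SP samples (red), with SP replicate 3 circled. The mean over all members is higher in each SP sample than in each PBS sample, which does not hold for every member. Means of epithelial, endothelial and B cell lists are lower in SP without overlap.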

How the data were processed

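Lung neutrophils from mice given PBS (4 samples) or SP (4 samples) were each hybridised to their own Affymetrix array, and groups and replicate numbers followed the sample titles. The deposited values are on a log2 scale. Per the study's methods the authors made them by robust multi-array averaging, correcting for background, for GC content and for probe sequence, normalizing by quantiles and summarising probes per gene by median polish. The submitters' processing notes name Affymetrix Expression Console, RMA and Partek. Such values are relative within an array, so a change in total RNA cannot be read from them, and bright signals may be compressed. Array medians lay between 6.06 and 6.20 in PBS and between 5.78 and 5.91 in SP. All 8 value columns of the table were used.

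Row accessions were matched without versions to NCBI RefSeq genes (GRCm38.p6). Of 24625 rows, 19915 (80.9%) received a symbol, and each lysosome gene matched at most 1 row. SP was compared with PBS by limma (version 3.58.1, R 4.3.3; lmFit and eBayes, no covariates, two-sided, Benjamini-Hochberg over all rows). Tested on simulated data of 24625 rows with 200 changed, it recovered 81.5% with 8 false calls. The simulated noise was independent between rows, and far fewer rows changed than the 44.1% called here. Such rates may not carry over to these data. Named genes were all members, with sample values for the member of each role with the highest mean, the largest called rise and fall and further 2-fold calls, and of each list of other genes the 2 largest called rises and falls. Tfeb, Tfe3, Mitf, M6pr, Ostm1, Cst3, Serpinb1a and the stefin A genes were named beyond this rule. Lamp3 and Atp6v0d2 stood in both a marker list and a list of other lysosome genes. Members and lists were chosen with earlier results of these data known. Alternatives tried were arrays centred on their median, a replicate block, another quantile normalization, array weights, an intensity trend with a robust prior, the methods' t-test (a one-way ANOVA), leaving out dim rows, 1 row per symbol, limma treat and leaving out each sample. Leaving out a pair of samples was chosen after seeing the data. Figures were drawn with Python 3.11.15.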

Additional observations from a re-analysis of the deposited data

Results flagged for a closer look

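In 66 groups of 4 samples (33 members in PBS and in SP), 3 samples stood apart from the others of their group by Dixon's ratio of gap to range. Chance flags about 1 in 20 groups. Gaa lay at 8.45 in SP replicate 3, against 9.45 to 9.62 in the other SP samples. Npc2 lay at 11.66 in SP replicate 3, against 12.09 to 12.15. Neu1 lay at 10.30 in SP replicate 4, against 10.37 to 10.38, a gap that is small in size.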

How the results depend on the processing

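Over 17 alternatives, limma treat left aside, members called higher ranged from 17 to 24 and members called lower from 3 to 5, and 19 of 33 members kept their direction and call in each. With arrays centred on their median, 18255 rows were called (14219 higher and 4036 lower, in place of 5306 and 5554), the member median was 0.93 and 1 member was called at least 2-fold lower. Centring adds the same amount to each SP difference. After another quantile normalization 7 members were called at least 2-fold higher. Limma treat, which asks for more than 2-fold, called 1572 rows, 3 members higher and 0 lower (0 also at an unadjusted p under 0.05, and 2 at 2-fold by the methods' t-test). Leaving out 1 sample gave 1 to 3 members at least 2-fold lower, with 1 without SP replicate 3. Without both PBS replicate 2 and SP replicate 3, 17 other lysosome genes were called lower.

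Signs turned for 7 members, none of them called in the main comparison. After another quantile normalization the difference was -0.028 for Ctsa, -0.22 for Ctsh, -0.086 for Ctsl and -0.043 for Npc2. With centred arrays it was 0.00052 for Asah1 and 0.10 for Atp6v0a1. With array weights it was -0.083 for Ctsl. Without PBS replicate 2 and SP replicate 3 it was -0.042 for Ctsl and 0.032 for Gaa. Leaving out 1 sample gave -0.063 to 0.22 for Ctsh and -0.028 to 0.17 for Ctsl. The cause of these turns was not tested.

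The labels give replicate numbers and do not state a pairing of the samples. Same-numbered samples correlated in their deviations at 0.016, 0.030, 0.35 and -0.27. Samples with unlike numbers correlated at -0.36 to 0.28. So few correlations cannot settle whether the samples were paired. With the replicate block 9842 rows were called, with 17 members higher and 4 lower.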

Other observations

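Inhibitors of cathepsins formed a list of 10 genes, 9 with a row, of which 2 were higher (22.2%, against 21.5% of all rows) and 1 lower (11.1%, against 22.6%). Cstb, the cytosolic inhibitor cystatin B, rose from 11.06, 10.82, 11.10 and 11.23 in PBS to 12.68, 12.67, 12.58 and 12.55 in SP, which is 2.96-fold (adjusted p = 1.45e-05 by limma). Cst7, cystatin F, which acts inside endosomes and lysosomes of immune cells, rose 6.22-fold (adjusted p = 0.000104), from 5.22 to 5.99 in PBS to 7.83 to 8.91 in SP. Serpinb6a fell by 0.92 log2 units (adjusted p = 0.00814). Cst3, the secreted cystatin C, differed by -0.23 and was not called (adjusted p = 0.0714).

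The stefin A genes, small cytosolic inhibitors that are abundant in neutrophils, were not called, and all had their highest SP value in SP replicate 3, opposite to most lysosomal members. Stfa2 lay at 10.66 there, against 7.52 to 8.63 in the other SP samples. Stfa3 lay at 7.43 there, against 4.79 to 5.58. Serpinb1a, an inhibitor of neutrophil serine proteases, lay at 10.84 there, against 7.73 to 8.59. Stefin A genes are near-identical copies, so values of single copies are uncertain.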
